A study of Rattus norvegicus with 10 samples.

Results

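The oxidative phosphorylation subunits described here are 37 nuclear genes that encode parts of the respiratory chain complexes I to IV, cytochrome c and the ATP synthase (complex V). They were chosen by name, with earlier results of these data known. A probe set (the group of short probes that reads 1 transcript) was used where the platform annotation gave one of these genes, under its current or a former symbol, as its only gene. This found 33 probe sets for 32 of the 37 genes, among 15866 probe sets and 10411 singly named genes in all. Ndufa10, Uqcrb, Cycs, Cox7a2 and Atp5mc1 were named only together with a related locus, so their probes could not be assigned and these 5 genes were not measured. Sdhd had 2 probe sets, and every other measured gene had 1. All 33 probe sets passed the filter on dim signals.

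The samples were total RNA of cavernosal tissue, the erectile tissue of the penis, from rats of the inbred F344 strain, with 1 Affymetrix RAE230A array per sample. There were 5 control samples and 5 samples from rats with diabetes induced by streptozotocin, a toxin of pancreatic beta cells, described as 10 week diabetic. The labels give no age, dose, vehicle or insulin treatment, and they do not say whether animals were pooled. They name only separate samples, and nothing tells biological from technical spread in the p-values. Samples are numbered 1 to 5 within each group as they were deposited, with no pairing implied.

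Complexes I and II pass electrons from NADH and succinate to ubiquinone, complex III hands them on to cytochrome c, and complex IV passes them to oxygen. Complexes I, III and IV pump protons across the inner mitochondrial membrane, and complex V uses the returning protons to make ATP. Striated muscle is rich in these complexes, whereas vascular and erectile smooth muscle draws more of its ATP from glycolysis. The core of complexes I, III, IV and V also needs subunits encoded in mitochondrial DNA, and none of these 13 genes had a probe set of its own here.

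Transcription of many respiratory chain genes is known to use binding sites for NRF1, GABP, YY1 and the estrogen-related receptors near the start site. The RefSeq promoter table (GRCr8) held 33 of the 37 genes, each as the stretch from 250 bases before to 50 bases after the transcription start. Both strands were searched. A short NRF1 pattern, the usual palindrome of this factor with 1 central position left free, was in 7 of the 33 promoters (21.2%), against 5.67% of 21851 promoters of protein-coding genes. The YY1 pattern GCCATNTT was in 13 (39.4%), against 7.67% of all. The GABP pattern CCGGAAGT was in 4 (12.1% against 4.77%), the receptor pattern TCAAGGTCA in 2 (6.06% against 0.366%), and the full NRF1 palindrome, which the short pattern includes, in 1, that of Atp5po (3.03% against 1.08%). The comparison was not matched for base composition, and a match describes letters only.

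Promoters of 5 members are shown, read 5′ to 3′ on the gene's strand with short NRF1 and YY1 matches in capitals. Ndufb5 and Ndufs6 had the smallest p-values of complex I, Sdha and Uqcrc1 were 2 of the 4 members with a log2 change above 0, and Atp5po held the full NRF1 palindrome, its first run of capitals. They lie at chr2:117447355-117447654 (plus strand, Ndufb5), chr1:31797150-31797449 (plus, Ndufs6), chr1:30764303-30764602 (plus, Sdha), chr8:118467973-118468272 (plus, Uqcrc1) and chr11:44657434-44657733 (minus, Atp5po).
Ndufb5: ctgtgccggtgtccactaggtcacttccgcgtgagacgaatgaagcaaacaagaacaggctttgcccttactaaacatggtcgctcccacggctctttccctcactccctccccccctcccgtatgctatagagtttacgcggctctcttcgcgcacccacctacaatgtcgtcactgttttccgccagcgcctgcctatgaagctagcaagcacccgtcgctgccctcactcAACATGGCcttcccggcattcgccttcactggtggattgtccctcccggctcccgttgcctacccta
Ndufs6: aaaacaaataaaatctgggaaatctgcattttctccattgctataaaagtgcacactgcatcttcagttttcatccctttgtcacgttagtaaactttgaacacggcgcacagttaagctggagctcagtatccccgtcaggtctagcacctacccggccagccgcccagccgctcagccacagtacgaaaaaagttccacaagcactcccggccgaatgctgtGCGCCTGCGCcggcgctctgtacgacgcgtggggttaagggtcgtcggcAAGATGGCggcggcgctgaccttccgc
Sdha: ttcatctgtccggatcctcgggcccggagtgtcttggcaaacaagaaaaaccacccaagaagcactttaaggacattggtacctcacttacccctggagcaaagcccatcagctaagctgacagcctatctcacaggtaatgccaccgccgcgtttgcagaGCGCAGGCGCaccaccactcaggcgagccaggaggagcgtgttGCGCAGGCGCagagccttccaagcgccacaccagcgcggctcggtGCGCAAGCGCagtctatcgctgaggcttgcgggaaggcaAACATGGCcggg
Uqcrc1: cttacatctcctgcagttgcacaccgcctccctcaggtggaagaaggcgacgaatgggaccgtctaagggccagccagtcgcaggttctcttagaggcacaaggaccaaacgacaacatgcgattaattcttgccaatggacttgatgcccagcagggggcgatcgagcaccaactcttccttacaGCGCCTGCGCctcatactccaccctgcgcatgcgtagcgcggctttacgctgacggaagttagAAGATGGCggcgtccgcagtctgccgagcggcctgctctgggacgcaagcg
Atp5po: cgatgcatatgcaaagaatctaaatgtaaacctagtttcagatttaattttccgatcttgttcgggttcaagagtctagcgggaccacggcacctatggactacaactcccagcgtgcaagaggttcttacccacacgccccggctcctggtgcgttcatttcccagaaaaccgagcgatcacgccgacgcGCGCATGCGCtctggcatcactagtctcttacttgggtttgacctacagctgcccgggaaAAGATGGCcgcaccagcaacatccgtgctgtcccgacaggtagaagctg

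In these promoters the YY1 match began 17 bases before the start site in Ndufb5, 23 bases past its first base in Ndufs6 and 38 past it in Sdha. Sdha held 3 short NRF1 matches, and Ndufs6, Uqcrc1 and Atp5po held 1 each. The median log2 change of the measured genes was -0.27 over 7 with the short NRF1 pattern and -0.25 over 22 without it, and it was -0.24 over 13 with the YY1 pattern and -0.26 over 16 without it. It was -0.09 over 4 with the GABP pattern and -0.26 over 25 without it, and -0.13 over 2 with the receptor pattern and -0.26 over 27 without it. These differences were not tested. Sdha and Uqcrc1 hold both the short NRF1 and the YY1 pattern and lay at the upper end of the changes. Ndufs6, near the lower end at -0.52, and Atp5po, at -0.32, hold both as well.

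The deposited values are linear intensities, scaled by the authors so that the mean of each array without its extreme values was nearly the same. Array medians ran from 116.7 to 131.3, and precision is limited by having 10 arrays. Pairs of diabetic arrays correlated at 0.956 to 0.972 across the probe sets tested, and pairs of control arrays at 0.774 to 0.974. Genes of epithelium set the controls apart. The mean log2 intensity of 15 epithelial markers was 5.79, 5.80, 9.00, 7.51 and 9.49 in controls 1 to 5 and 8.53 to 9.57 in the diabetic arrays. Skeletal muscle transcripts were bright in every array, with a mean log2 intensity of 23 markers of 11.75 to 12.28 in controls and 11.48 to 12.02 in diabetic arrays. Scan day 1 held controls 1 and 5 and diabetic 2, day 2 control 4 and diabetic 1, day 3 controls 2 and 3 and diabetics 4 and 5, and day 4 diabetic 3. Of the arrays washed on fluidics station 1, 4 were controls and 1 was diabetic, and on station 2 the numbers were reversed.

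Most of the subunit genes had lower intensities in diabetic tissue, but no single one passed the test. Of the 32 measured genes, 28 were lower and 4 higher in mean log2 intensity in the diabetic group, whereas 42.24% of all 9683 probe sets tested were lower. The median log2 change, diabetic minus control on the log2(intensity + 16) scale, was -0.26 for the 32 genes (range -0.56 to 0.27) and 0.05 for all probe sets. In limma, with p-values adjusted by Benjamini-Hochberg over the whole table, 0 of the 32 had an adjusted p under 0.05, where 0.423% of all probe sets did, and the smallest adjusted p among them was 0.102. At an unadjusted p under 0.05, 9 were lower and 0 higher, against 7.43% of all probe sets lower and 10.1% higher. The 5 control and 5 diabetic values overlapped in all 32, where 3.89% of all probe sets had groups that did not overlap. In bulk tissue, fewer cells of a type and less RNA per cell cannot be told apart.

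**Figure D1:**
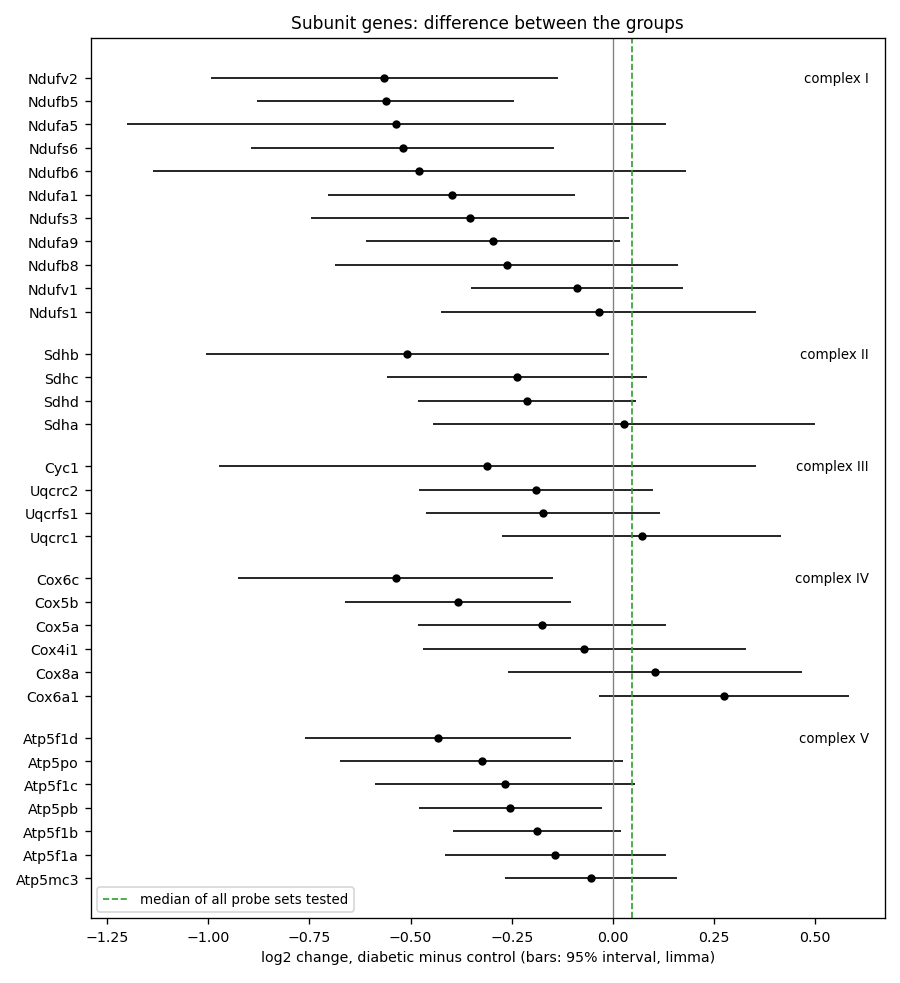
Log2 change, diabetic minus control, of the 32 measured subunit genes by complex, with 95% confidence intervals from limma (5 arrays per group) and a dashed line at the median of all probe sets tested. All 11 genes of complex I and all 7 of complex V lie below 0, and the 4 genes above 0 are Sdha, Uqcrc1, Cox6a1 and Cox8a.

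Complex I, the NADH dehydrogenase, had a median change of -0.40 on the log2 scale, the lowest of the 5 complexes when all arrays were compared. That rank passed to complex IV or V without controls 1, 2 and 4 or with a marker mean as a covariate, as given below. All 11 of its measured genes were lower in diabetic tissue, 4 of them at an unadjusted p under 0.05. Ndufb5, an accessory subunit of the membrane arm whose promoter is shown above, had intensities of 1769, 1769, 1260.1, 1546 and 1202 in controls 1 to 5. In diabetics 1 to 5 it had 1216, 894, 1024, 886 and 1034. Diabetic 1 overlapped only control 5, and the other 4 diabetic arrays lay under every control. The means were 1509 ± 270 and 1011 ± 134 (SD over 5 arrays). The log2 change was -0.56 ± 0.14 (SE), with a 95% confidence interval of -0.88 to -0.24 and a limma adjusted p of 0.102.

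Ndufs6, an accessory subunit that carries a zinc ion, had 2595, 2372, 1615, 1948 and 1402 in the controls. Its diabetic values were 1404, 1172, 1324, 1292 and 1567. Controls 1 to 4 lay above every diabetic array, and control 5 lay among them. The log2 change was -0.52 ± 0.17 (SE, limma adjusted p = 0.181). Among the subunits of the matrix arm, Ndufv2, a 2Fe-2S protein, changed by -0.56 ± 0.19 (adjusted p = 0.197) and Ndufs3, part of the ubiquinone-reducing module, by -0.35 ± 0.18. Ndufv1, which binds NADH and the flavin, and Ndufs1, the largest subunit, were near 0, with intervals of -0.35 to 0.17 and -0.42 to 0.35. The remaining accessory subunits Ndufa1, Ndufa5, Ndufa9, Ndufb6 and Ndufb8 had changes between -0.53 and -0.26. Ndufb6 spread from 383 to 1345 in the controls and from 529 to 729 in the diabetic arrays.

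Complex II, succinate dehydrogenase, also works in the citric acid cycle and is encoded by nuclear genes alone. Its 4 genes had a median change of -0.22. Sdhb, the iron-sulfur subunit, read 1971, 1938, 1217, 1421 and 865 in the controls and 1222, 741, 1019.5, 956 and 1088 in the diabetic arrays. Control 5 lay under 4 of the 5 diabetic arrays, and controls 1, 2 and 4 lay above all of them. The log2 change was -0.51 ± 0.23 (SE, limma adjusted p = 0.278). Sdhd, a membrane anchor, read 2502, 2515, 2063, 2149.7 and 1783 in the controls and 2140.4, 1635, 1788, 1952 and 1938 in the diabetic arrays by its brighter probe set. Its groups overlapped through controls 3 and 5, and its change was -0.21 ± 0.12 (SE, limma adjusted p = 0.372). The second probe set of Sdhd changed by -0.23 ± 0.16, in the same direction. Sdha, the flavoprotein that oxidizes succinate, read 1671, 1892, 1078, 1792 and 971 in the controls and 1908, 1139, 1488, 1277 and 1582 in the diabetic arrays. Its group means were 1481 and 1479, so only the mean of the log2 values was higher, by 0.03 (interval -0.44 to 0.50), and this sign reversed in 8 of 25 alternative fits. Sdhc, the other anchor, changed by -0.24 ± 0.15.

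Complex III, the cytochrome bc1 complex, showed smaller differences, with a median of -0.18 over 4 genes and none at an unadjusted p under 0.05. Uqcrc2, a core protein, read 2094, 2152, 1802, 1734 and 1481 in the controls and 1945, 1400.3, 1646, 1489 and 1609.9 in the diabetic arrays. It changed by -0.19 ± 0.13 (SE, limma adjusted p = 0.446). Uqcrfs1, the Rieske iron-sulfur protein, read 3449, 3726, 2996, 3262 and 2402 in the controls. It read 3042, 2387, 2672, 2731 and 3118 in the diabetic arrays, a change of -0.17 ± 0.13 (limma adjusted p = 0.490). Within the range of the diabetic values fell controls 3, 4 and 5 for Uqcrc2 and controls 3 and 5 for Uqcrfs1. Cyc1, cytochrome c1, had the widest interval of the 4, -0.97 to 0.35, with controls from 899 to 2608. Uqcrc1, the second core protein, read 1836, 1919, 1597, 2123 and 1426 in the controls and 2228, 1614, 1467, 1806 and 2288 in the diabetic arrays, with a change of 0.07 (interval -0.27 to 0.41).

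Complex IV, cytochrome c oxidase, had a median of -0.12 over 6 genes, 4 lower and 2 higher, and held the highest change of the 32, that of Cox6a1. Cox6c, a small membrane subunit, read 6285, 5218, 4026, 3998 and 3244 in the controls and 3849, 2932, 2898, 2620.4 and 3087 in the diabetic arrays. Diabetic 1 lay above control 5, and the other 4 diabetic arrays lay under every control. The change was -0.54 ± 0.18 (SE, limma adjusted p = 0.181). Cox5b, a zinc-binding subunit on the matrix side, read 2990.4, 2974, 2303, 2422 and 2131 in the controls and 2276, 1716, 1893, 1839 and 2047 in the diabetic arrays. Again only diabetic 1 overlapped the controls, through control 5, and the change was -0.38 ± 0.13 (limma adjusted p = 0.183).

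Cox4i1, a regulatory subunit that binds ATP, ranged from 2702 to 5121 in controls and from 3077 to 4625 in diabetic arrays, with a change of -0.07 ± 0.18. Cox5a was dim, at 120.2 to 155 and 82.6 to 148, and changed by -0.18 ± 0.14. Cox6a1 and Cox8a, the widely expressed forms of small subunits, were the 2 higher members of complex IV, and they are described because of that direction. Cox6a1 read 817, 743, 949, 799 and 1165 in the controls and 1162, 1231, 1105, 941 and 948 in the diabetic arrays, a change of 0.27 ± 0.14 (interval -0.03 to 0.58; limma adjusted p = 0.329). Cox8a read 2187, 2138, 2973, 2046 and 3545 in the controls and 2594, 3084, 2738, 2265 and 2926 in the diabetic arrays, a change of 0.10 ± 0.17. In both genes control 5 was the highest control, the opposite of its place in most members.

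Complex V, the ATP synthase, was lower for all 7 measured genes, with a median of -0.25. It was -0.11 without controls 1 and 2 and -0.09 with either marker mean as a covariate, where Atp5f1a turned to 0.04 (epithelial) and 0.06 (skeletal muscle) and Atp5f1c to 0.0036 (skeletal muscle). Atp5f1d, the delta subunit of the central stalk, read 1954, 2325, 1511, 1775 and 1418 in the controls and 1433, 1064, 1268, 1434 and 1369.8 in the diabetic arrays. Controls 1 to 4 lay above every diabetic array, and control 5 lay just under diabetics 1 and 4. The change was -0.43 ± 0.15 (SE, limma adjusted p = 0.196). Atp5pb, the b subunit of the peripheral stalk, read 3874, 3938, 4550.4, 3557 and 4090.5 in the controls and 3698, 3068, 3104, 3157 and 3756 in the diabetic arrays. Here control 4, not control 5, overlapped the diabetic values, and the change was -0.25 ± 0.10 (limma adjusted p = 0.248).

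The catalytic Atp5f1b and its partner Atp5f1a changed by -0.19 ± 0.09 and -0.14 ± 0.12. Atp5f1c, the gamma subunit that turns in the catalytic head, changed by -0.27 ± 0.15, and Atp5po, which joins the stalk to the head, by -0.32 ± 0.16. Atp5mc3, 1 of several genes for the c ring, was near 0 at -0.05, with an interval of -0.27 to 0.16. Its 5 controls ranged from 3838 to 4698 and its diabetic arrays from 3446 to 4303.

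**Figure D2:**
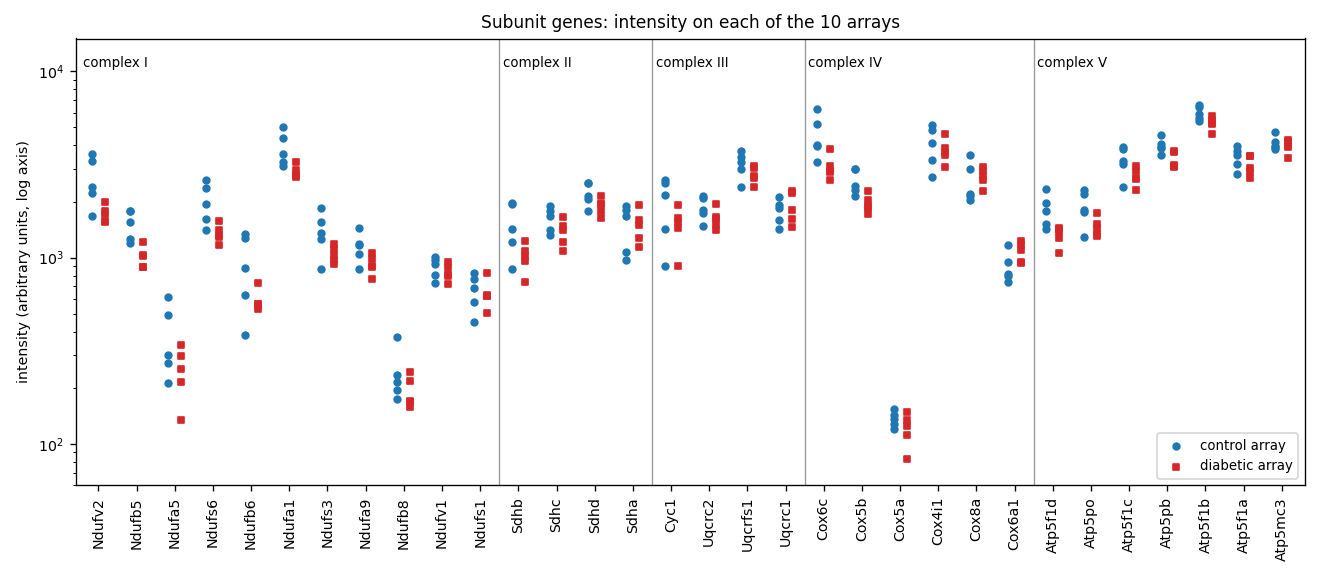
Intensities (arbitrary units, log axis) of the 32 measured genes by complex, with each control array as a circle and each diabetic array as a square. The 2 groups overlap for every gene, and heights are not comparable between genes.

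The differences from the diabetic arrays were largest for controls 1 and 2. Control 1 was above every diabetic array for 24 of the 32 genes and control 2 for 25, while control 4 was so for 19, control 3 for 12 and control 5 for 4. Control 2 was the highest of all 10 arrays for 14 genes and control 1 for 10. Control 5 was the lowest control for 25 genes. Diabetic 2 was the lowest of the 10 arrays for 17 genes. The mean log2 intensity of the 32 genes was 10.92, 10.97, 10.59, 10.71 and 10.38 in controls 1 to 5 and 10.65, 10.26, 10.43, 10.43 and 10.55 in diabetics 1 to 5. Control 5 thus lay among the diabetic arrays, and diabetic 1 lay above control 3. Controls were more variable than diabetic arrays in 27 of the 32 genes, which 77.0% of all probe sets tested also were.

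**Figure D3:**
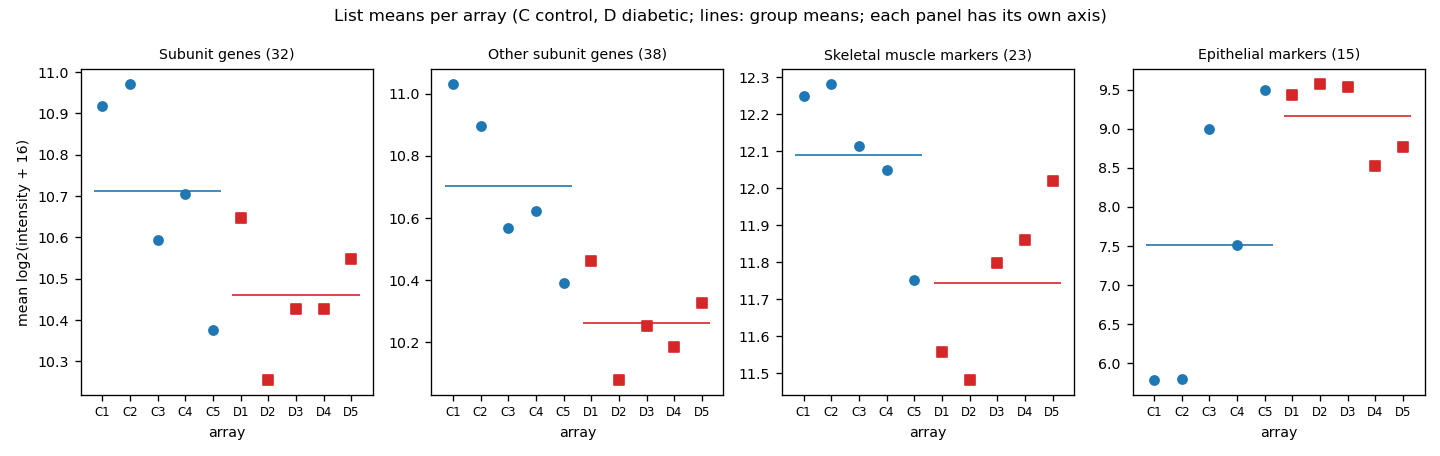
Mean log2(intensity + 16) on each array (C1 to C5 control, D1 to D5 diabetic) of the 32 subunit genes, 38 other subunit genes, 23 skeletal muscle markers and 15 epithelial markers, each panel on its own axis, with lines at the group means. C1 and C2 have the highest subunit means and the lowest epithelial means, and C5 has a subunit mean among those of the diabetic arrays.

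Markers of other cell types moved over the same arrays. Controls 1 and 2, with the highest subunit means, had the lowest epithelial means, and control 5, with the lowest subunit mean of the controls, had the highest. The 15 epithelial markers were all higher in the diabetic group, with a summed intensity of 742.1 to 15249 in controls and 7120 to 15221 in diabetic arrays. No defining epithelial marker was at 0, although Cdh1 was at 3.3 in control 1 and Cldn7 at 6.8 in control 2. Of 23 skeletal muscle markers, 22 were lower, with a median change of -0.26. Their summed intensity was 124146 to 150367 in controls and 99299 to 133230 in diabetic arrays. Changes within this list were uneven. Pvalb changed most, by -1.79, and Casq1 changed by -0.64. Acta1, Atp2a1, Myl1, Myh4 and Ckm changed by -0.066, -0.094, -0.11, -0.16 and -0.18, and Tcap was higher, by 0.14. Whether the mean of this list follows muscle content was not tested. Of 12 smooth muscle markers, 9 were higher, with a median of 0.24 and sums of 14523 to 17636 and 15045 to 20062. All 6 fibroblast markers were lower, with sums of 22144 to 32828 and 11116 to 17758. The large changes were those of the collagens Col1a1, Col1a2 and Col3a1, at -2.05, -1.81 and -1.35. Dcn and Lum were near 0, at -0.0087 and -0.062, and Pdgfra was at -0.25. Of 5 adipocyte markers, 4 were higher, with a median of 0.60 and sums of 763.5 to 1824 and 1672 to 2651. They held the 2 called markers, Lpl, lipoprotein lipase (change 1.41, limma adjusted p = 0.0108), and Cidea, a lipid droplet protein (1.15, limma adjusted p = 0.0413). Of all probe sets, 0.217% were called higher. The other adipocyte markers tested, Lipe, Fabp4 and Cfd, changed by 0.60, 0.38 and -0.56 and were not called. Plin1 and Lep did not pass the filter. Both tested secretory gland products were higher, with a median of 2.54 and sums of 62.7 to 13984 and 8874 to 12994. Of 8 endothelial markers 7 were higher, with a median of 0.13, and of 4 blood cell markers 3 were higher, with a median of 0.05. Groups without overlap were lower for 1 of the 23 skeletal muscle and 3 of the 6 fibroblast markers. They were higher for 2 of the 5 adipocyte and 1 of the 8 endothelial markers. Over all probe sets tested, 1.53% were lower and 2.36% higher without overlap. The part of these cell types in the subunit differences was not tested beyond the fits that follow.

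The size of the difference depended on which controls were compared. Without controls 1, 2 and 4, whose epithelial genes were low, the median change of the 32 genes was -0.05, with 22 of the 32 lower. These controls also had the highest mean intensities of the 32 genes, so leaving them out moves the change toward 0 by that choice alone. Controls 3 and 5 remained, and control 5 was the lowest control for 25 genes. The part of the epithelial genes in this shift was not tested. With the epithelial marker mean as a covariate the median of the 32 genes was -0.06. With the skeletal muscle marker mean it was -0.03, with 21 lower. In these 3 fits, in that order, complex I had medians of -0.06, -0.04 and -0.06, complex II -0.04, -0.05 and 0.01, complex III 0.17, 0.14 and 0.16, complex IV -0.16, -0.16 and -0.08, and complex V -0.12, -0.09 and -0.09. Complex IV thus did not move toward 0 in the first 2 of them, while the other 4 complexes did or turned sign. When controls 1 and 2 were left out but control 4 was kept, 25 of the 32 genes were lower. Without control 5 the median was -0.33, and limma called 11 of the 32 genes lower at an adjusted p under 0.05, where 5.71% of all probe sets were called lower. These were Ndufa1, Ndufb5, Ndufb6, Ndufs3, Ndufs6 and Ndufv2 of complex I, Sdhb, Cox5b, Cox6c, Atp5f1d and Atp5po. With array weights, which give less influence to arrays that stand apart, limma called 14 lower and Cox6a1 higher, where 29.1% of all probe sets were called in either direction.

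Differences within batches ran mostly the same way but were small on the day with 1 array of each group. Only day 3 held more than 1 array of each group. Within scan day 1, where diabetic 2 was the only diabetic array, the median change of the 32 genes was -0.37, with 30 lower. Within day 2, where control 4 met diabetic 1, it was -0.02, with 20 lower. Within day 3 it was -0.32, with 28 lower, and day 4 held 1 diabetic array alone. The median was -0.50 within station 1, where 4 controls met diabetic 2 alone, the lowest of the 10 arrays for 17 genes. It was -0.19 within station 2, where control 4 alone met 4 diabetic arrays. Ndufb5 changed by -0.70, -0.34 and -0.63 within the 3 days and by -0.71 and -0.57 within the stations. With scan day as a block in limma the median was -0.27, and with station as a block -0.32. Each of these fits called 0 probe sets over the whole table, and so 0 of the 32. At an unadjusted p under 0.05 there were 6 and 7 of the 32, against 11.6% and 15.3% of all probe sets.

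Subunits outside the 37 genes were lower too. Of 38 tested genes for other nuclear-encoded subunits, 37 were lower, with a median log2 change of -0.43. Cox7a2l, a factor that links complexes into supercomplexes, was the exception at 0.03. Most of the 38 were genes of complex I, and the list was not split by complex. The median of the 38 genes was -0.19 without controls 1, 2 and 4, which had the highest means of these genes among the controls. It was -0.21 with the epithelial and -0.23 with the skeletal muscle marker mean as a covariate, over the arrays on which those markers differed. At an unadjusted p under 0.05, 30 were lower, against 7.43% of all probe sets, and 5 had groups that did not overlap, against 1.53%. Ndufs8, a complex I subunit with 2 iron-sulfur clusters, fell. It read 654, 672, 589.8, 638 and 637 in the controls and 421, 402, 492, 468 and 453 in the diabetic arrays. Every diabetic value lay under every control value, and control 5 was close to the other controls. The log2 change was -0.50 ± 0.09 (SE, limma adjusted p = 0.0496), where 0.207% of all probe sets were called lower. This adjusted p lay at the threshold, and the call was lost in 17 of 25 alternative fits. Some of these fits, such as those with scan day or station as a block, called 0 of all 9683 probe sets. The change of Ndufs8 was -0.53 to -0.46 when single arrays were left out.

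Ndufa2, an accessory subunit of complex I, read 1277, 1047, 757, 752 and 687 in the controls and 587, 462, 459, 451 and 499 in the diabetic arrays. Its groups did not overlap, and its change was -0.82 ± 0.17 (SE, limma adjusted p = 0.0612). Uqcrq, a small subunit of complex III, had controls of 1627 to 2587 above all diabetic values of 1189 to 1529.9 (change -0.52 ± 0.13, adjusted p = 0.102). Ndufv3, an accessory subunit next to Ndufv1, had 634 to 799.9 in controls and 458 to 532 in diabetic arrays (change -0.50 ± 0.10, adjusted p = 0.0592). A second, dim probe set of Ndufv3, which did not pass the filter, lay the other way, at 43.2 to 48.8 in controls and 52.6 to 88.7 in diabetic arrays. The fifth gene without overlap was Ndufa7, at 1014 to 1489.6 and 838 to 958, named for that reason after its values were seen.

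**Figure D4:**
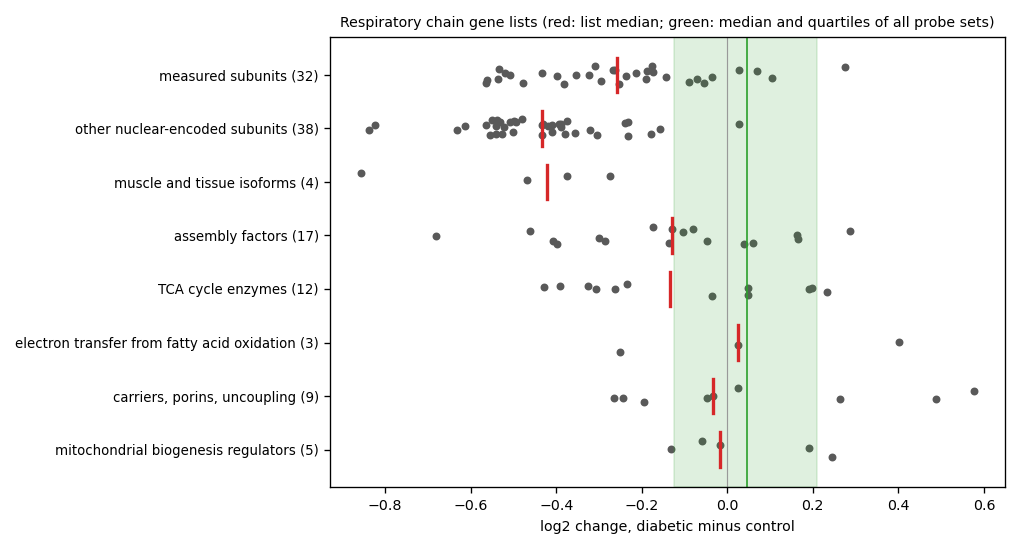
Log2 change, diabetic minus control, of each tested gene in 8 lists around oxidative phosphorylation (points), with list medians in red and the median and quartiles of all probe sets tested in green. The other nuclear-encoded subunits have a median of -0.43 and the 32 measured members -0.26, while assembly factors, citric acid cycle enzymes, carriers and regulators have medians closer to 0.

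Several subunits have a form found in heart and skeletal muscle beside a widespread form. The muscle and tissue isoforms tested were 4, all lower, with a median of -0.42. With the skeletal muscle marker mean as a covariate, Cox6a2 turned to 0.04 and Ndufa4l2 to 0.03, while Cox8b was at -0.50. Cox8b, the muscle form of subunit 8, read 5097, 4391, 4064, 3539.7 and 2569.5 in the controls and 2876, 1457, 2263, 1905 and 2314 in the diabetic arrays. Only diabetic 1 overlapped a control, control 5, and the change was -0.86 ± 0.21 (SE, limma adjusted p = 0.0950). Cox6a2, the muscle form of subunit 6a, read 4678, 4442, 3835, 3566 and 2147 in the controls and 3023, 1799, 2417, 2882 and 3152 in the diabetic arrays, with a change of -0.47 ± 0.22 (limma adjusted p = 0.306). Ndufa4l2, a relative of a complex IV subunit induced by low oxygen, changed by -0.37 ± 0.22 and Cox4i2, the form of subunit 4 known from lung and smooth muscle, by -0.28 ± 0.19. Cox7a1 and Cox6b2 did not pass the filter.

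Set against their widespread partners on the same array, the muscle forms were lower in diabetic tissue for each of 3 pairs. The mean log2 ratio of Cox8b to Cox8a was lower by 0.96 in diabetic arrays, with SDs of 0.66 in controls and 0.44 in diabetic arrays, and that of Cox6a2 to Cox6a1 was lower by 0.74 (SDs 0.68 and 0.47). For the adenine nucleotide carriers Slc25a4, the muscle form, and Slc25a5, the widespread form, it was lower by 0.77 (SDs 1.13 and 0.32). Groups overlapped in all 3, and control 5 had the lowest ratio of the controls in each. Controls 1, 2 and 4 had the highest ratios in each, and without them the differences were -0.35, -0.17 and 0.37. These ratios were not tested.

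**Figure D5:**
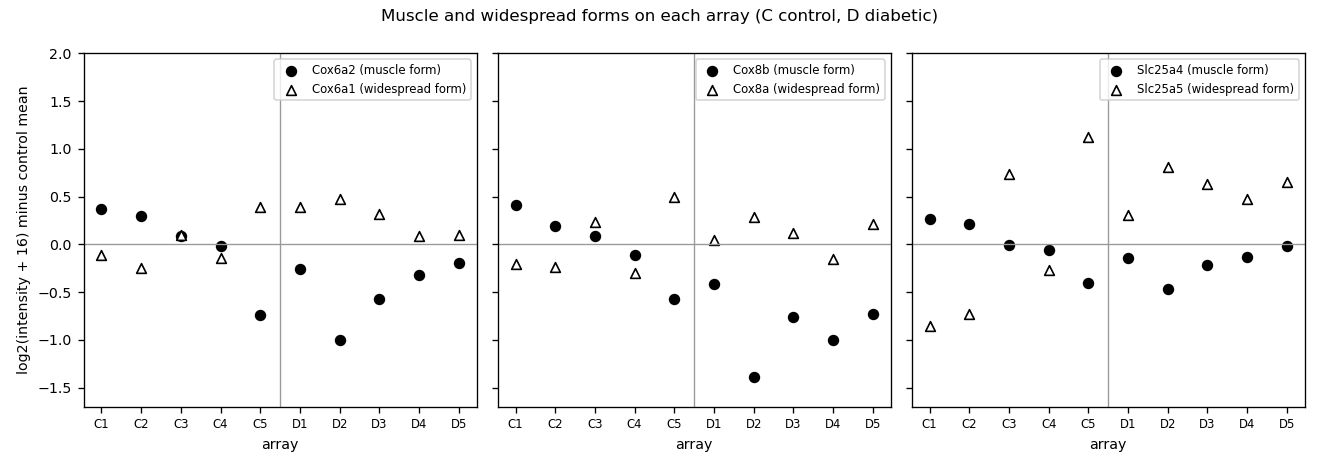
Log2 intensity of the muscle form (filled circles) and widespread form (open triangles) of 3 pairs on each array, each minus its own control mean (C control, D diabetic). Muscle forms lie high and widespread forms low on C1 and C2, and control 5 lies the other way, like most of the diabetic arrays. Cox8a on D4 is an exception, below its control mean.

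Genes that build or feed the chain had list medians nearer to 0, a difference from the subunits that was not tested. Of 17 tested assembly factors, 12 were lower, with a median of -0.13. Sdhaf2, which attaches flavin to Sdha, had 206 to 282 in controls and 166 to 186 in diabetic arrays (change -0.41 ± 0.10, limma adjusted p = 0.0954), and Timmdc1, which helps assemble complex I, had 356 to 461 and 298 to 343 (-0.29 ± 0.10, adjusted p = 0.204). The groups of these 2 of the 17 did not overlap, where 1.53% of all probe sets were lower without overlap. Ndufaf3, another complex I factor, changed by -0.40 ± 0.15 and Cox15, which makes heme a for complex IV, by 0.29 ± 0.10. Of 12 citric acid cycle enzymes, 7 were lower, with a median of -0.13. Among them Idh3g, a subunit of isocitrate dehydrogenase, changed by -0.39 ± 0.13, Sucla2, of succinyl-CoA synthetase, by -0.31 ± 0.14, Dld, the shared dihydrolipoyl dehydrogenase, by -0.26 ± 0.13, and Cs, citrate synthase, by 0.23 ± 0.13. None of these 4 was called.

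Etfdh, which passes electrons from fatty acid oxidation to ubiquinone, differed in the opposite direction. It read 211, 208, 202, 227 and 193 in the controls and 396, 264, 257, 264 and 242 in the diabetic arrays. All diabetic values lay above all control values, with diabetic 1 far above the other 4, and the change was 0.40 ± 0.13 (SE, limma adjusted p = 0.175). Higher groups without overlap were found for 2.36% of all probe sets. Its electron donors Etfa and Etfb, which form the electron transfer flavoprotein, changed by 0.03 ± 0.12 and -0.25 ± 0.12.

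Carriers, porins and uncoupling proteins had a median of -0.03 over 9 genes, 5 of them lower. Ucp3, the uncoupling protein of skeletal muscle, changed by 0.49 ± 0.23, Slc25a5 by 0.58 ± 0.35, Slc25a4 by -0.20 ± 0.14 and Vdac3, an outer membrane porin, by -0.24 ± 0.15. Among regulators of mitochondrial gene expression, 5 were tested and 3 were lower, with a median of -0.02. Gabpb1, a subunit of GABP, changed by 0.24 ± 0.10, and Polrmt, the mitochondrial RNA polymerase, by 0.19 ± 0.18. Tfam, which packs and transcribes mitochondrial DNA, changed by -0.06 ± 0.11, and Esrra, an estrogen-related receptor, by -0.13 ± 0.12. The coactivator Ppargc1a did not pass the filter, at 5.3 to 35.3 in controls and 27.4 to 41.2 in diabetic arrays, and Nrf1 had no probe set of its own. No gene of these carrier, regulator, assembly, cycle and electron transfer lists was called by limma.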

How the data were processed

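Total RNA of 5 control and 5 diabetic samples was read on 1-colour arrays. Each array's deposited values are linear intensities, 1 for every probe set, which the authors had scaled to a common trimmed mean, as the values show. The software was not given in the sources used here. There are no detection calls. Batches came from the scanner records, per the file headers. The table has 15923 rows, of which 57 are control probe sets and were dropped. The platform annotation named 1 gene for 12783 probe sets, several for 312 and none for 2771, and 12748 symbols were updated through the RefSeq table.

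After a floor of 1, intensities were taken to log2(intensity + 16), so changes of dim probe sets are understated. Testing required an intensity over 85.9 (the 40th percentile) on 5 or more of 10 arrays. The test was two-sided, from limma 3.58.1 (lmFit, eBayes with trend; R 4.3.3), adjusted by Benjamini-Hochberg over 9683 probe sets, at 0.05. A gene was read by its brightest probe set. The members and lists were chosen with earlier results of these data known. Named were called members, the 2 members per complex with the smallest p, members without overlap, members whose probe sets differ in sign, and up to 4 genes per other list. In 20 simulations of this comparison with 9683 probe sets, 78.8% of 2-fold and 96.2% of 4-fold changes were called, and 5.45% of calls were false. Whether these rates hold for the real arrays was not tested. There, controls were more variable in 77% of probe sets, and calls went from 41 to 1068 without control 5. No measured subunit gene reached a 2-fold change, and the largest fold change was 1.48, that of Ndufv2. Alternatives covered normalization, pseudocount, filter, scan day, station, trend, array weights, probe set averaging, arrays left out and marker covariates. Figures were drawn with matplotlib 3.10.9.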

Additional observations from a re-analysis of the deposited data

Results flagged for a closer look

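Of 118 groups of 5 arrays checked over 59 genes, 3 held a sample far from the others, and chance alone would flag about 1 group in 20. Ndufb6 read 728.9 in diabetic 1, where the next diabetic array had 563.9. Etfdh read 396.2 in diabetic 1, where the next had 264.1. Esrra read 123.3 in diabetic 3, where the next had 86.1.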

How the results depend on the processing

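No paired analysis was possible because the replicate numbers only mirror deposit order. Leaving out 1 array at a time gave 0 to 11 subunit genes called (11 without control 5), 0 to 22 other subunits called, 0 to 1068 probe sets called in all, and medians of -0.33 to -0.18 for the 32 genes and -0.20 to -0.077 for complex IV. Over the same fits the sign turned for Ndufs1 (-0.16 to 0.053), Sdha (-0.11 to 0.13), Uqcrc1 (-0.0053 to 0.15), Cox4i1 (-0.21 to 0.024), Etfa (-0.045 to 0.10) and Tfam (-0.11 to 0.014). Main counts to compare are 0 subunit genes, 1 other subunit and 41 probe sets called. Array weights called 15 subunit genes and 34 other subunits, with complex IV at -0.22, Sdha -0.19, Uqcrc1 -0.035 and Etfa -0.0053. The other subunits called were 0 with pseudocounts of 1 and 64, with scan day or station as a block, with either covariate and without either set of controls. Over the whole table, the pseudocounts gave 22 and 28 calls and each block 0. The epithelial covariate gave 17 and the skeletal muscle covariate 0. There were 0 without controls 1 and 2, and 21 without controls 1, 2 and 4. Scan day as a block turned Sdha to -0.032, and station gave complex IV -0.24, Sdha -0.23, Uqcrc1 -0.10, Etfa -0.014 and Polrmt -0.080. Median centring gave complex IV -0.20, all probe sets -0.030, Sdha -0.050, Uqcrc1 -0.0062 and Etfa -0.051, and it moved the share of higher calls from 51.2% to 30.2%. Quantile normalization turned Cox4i1 to 0.011 and Atp5mc3 to 0.018. Without controls 1 and 2, complex V was -0.11, Ndufs1 0.069, Ndufv1 0.018, Cyc1 0.032, Cox4i1 0.16 and Cox8a -0.041. Without controls 1, 2 and 4, the medians were -0.053 (32 genes), -0.058 (complex I), 0.17 (III) and -0.19 (other subunits), with Ndufb6 0.24, Ndufs1 0.30, Ndufv1 0.10, Uqcrfs1 0.050, Cyc1 0.34, Cox4i1 0.31, Cox8a -0.26, Atp5f1a 0.054, Vdac3 0.0045, Slc25a5 -0.35, Slc25a4 0.013 and Tfam 0.090. The epithelial covariate gave medians of -0.041 (complex I), 0.14 (III), -0.089 (V) and -0.21 (other subunits), with Ndufb6 0.14, Ndufs1 0.17, Ndufv1 0.080, Uqcrfs1 0.035, Cyc1 0.26, Cox4i1 0.26, Cox8a -0.18, Atp5f1a 0.040, Slc25a5 -0.20 and Slc25a4 0.040. The skeletal muscle covariate gave medians of -0.032 (32 genes), -0.064 (complex I), 0.013 (II), 0.16 (III) and -0.091 (V). It turned Ndufs1 to 0.047, Ndufs3 0.045, Ndufv1 0.073, Sdhc 0.056, Uqcrfs1 0.073, Cyc1 0.28, Cox4i1 0.22, Cox6a1 -0.030, Cox8a -0.14, Atp5f1a 0.057, Atp5f1c 0.0036, Cox6a2 0.045, Ndufa4l2 0.033, Vdac3 0.069, Slc25a5 -0.0022, Slc25a4 0.12 and Tfam 0.0029. The causes of these shifts were not tested. With no detection calls, no probe set could be placed below background.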
